A study of Homo sapiens with 8 samples.

Results

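The 36 genes described here encode the enzymes and transporters of glycolysis and a set of transcripts known to respond to low oxygen. They were listed by gene symbol, and all 36 were found among the 58440 genes of the deposited count table. After removal of genes with low counts, 17144 genes were tested, 35 of the 36 among them. CA9, a carbonic anhydrase that is a classical hypoxia marker, was the member not tested: it had 0 to 2 counted read pairs per library.

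Messenger RNA was sequenced from HEK293 cells, a human embryonic kidney line, as stranded polyA libraries. By the labels, cells that stably overexpress HTR1E (a Gi-coupled receptor for serotonin) were compared with control HEK293 cells, each with serotonin at 1 µM for 1 h and without ligand, with 2 samples per group. All groups had 3 h without serum. Whether the overexpressing line is 1 clone or a pool, and how the control line was made, is not given in the sources used here.

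The table has 8 columns whose names give the treatment and a letter, A or B, with or without an R; the labels do not say which letter is which cell line. The 4 columns with the letter A held 1353 to 1836 read pairs of HTR1E, or 202 to 253 CPM (counts scaled to a common library total), and the 4 columns with the letter B held 0 to 3, or 0 to 0.399 CPM. They are called the HTR1E-high and the HTR1E-low libraries below, and this identity rests on that transcript alone, so HTR1E itself is no result. The meaning of R is not given, and nothing says that columns with and without it came from separate cultures. The p-values therefore measure only the spread between these libraries, which may be technical.

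Glycolysis splits glucose to pyruvate in the cytosol, and proliferating lines such as HEK293 reduce much of that pyruvate to lactate. Many of its genes, together with those of angiogenic peptides, mitophagy receptors and collagen hydroxylases, are induced by the hypoxia-inducible factors (HIF), which bind promoters and enhancers at a short core motif. When oxygen is present, the EGLN prolyl hydroxylases mark the HIF alpha subunits for destruction.

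RefSeq promoter entries (GRCh38.p14) were matched for 32 of the 36 members, and not for SLC2A3, VEGFA, BNIP3L and NDRG1. The HIF core was searched as ACGTG or GCGTG on both strands over the 250 bases before the start, where a CACGTG palindrome counts on both strands. It was present in 20 of the 32 promoters (62.5%), and in 11763 of 27305 promoters of the same length (43.1%). Only the first entry listed for each gene was used. For PFKP, PFKFB3 and GAPDH, the bases just after the start were not found in the gene's own annotated transcripts. PFKFB3 and GAPDH are among the 20 with a match. A match is a run of letters and not a bound site. The promoters of HK2 (chr2:74833877-74834126, plus strand, 3 matches), GPI (chr19:34364742-34364991, plus strand, 1 match) and P4HA2 (chr5:132227092-132227341, minus strand, 0 matches) are shown, since these genes differed between the sets of libraries (below). Each reads 5′ to 3′ on the gene's strand, with matches of either strand in capitals.

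HK2: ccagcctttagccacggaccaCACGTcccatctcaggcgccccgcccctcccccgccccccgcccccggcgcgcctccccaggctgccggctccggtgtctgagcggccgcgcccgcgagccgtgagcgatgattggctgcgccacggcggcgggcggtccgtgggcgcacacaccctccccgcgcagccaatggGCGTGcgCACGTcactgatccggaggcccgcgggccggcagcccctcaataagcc

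GPI: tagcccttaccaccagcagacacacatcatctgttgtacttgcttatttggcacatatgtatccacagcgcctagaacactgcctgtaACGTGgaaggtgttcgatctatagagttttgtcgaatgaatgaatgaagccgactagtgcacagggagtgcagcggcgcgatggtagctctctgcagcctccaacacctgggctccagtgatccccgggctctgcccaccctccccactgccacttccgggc

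P4HA2: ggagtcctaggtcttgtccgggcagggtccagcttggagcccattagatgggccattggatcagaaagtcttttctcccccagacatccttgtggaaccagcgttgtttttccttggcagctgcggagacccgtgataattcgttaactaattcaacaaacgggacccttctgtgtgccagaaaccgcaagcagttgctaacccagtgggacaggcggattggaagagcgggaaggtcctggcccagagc

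The libraries held 5439082 to 9072278 counted read pairs in the HTR1E-high set and 2604885 to 8360400 in the HTR1E-low set. Mitochondrially encoded genes took 17.9% to 24.6% of counts in the HTR1E-high set and 18.9% to 54.4% in the HTR1E-low set. Of the HTR1E-low libraries, B without ligand (2604885 read pairs, 54.4%) and BR with serotonin (7518565 read pairs, 36.3%) stood apart from the rest, and estimates are given with and without both. All 8 of 8 HEK293-like markers were counted in every library, with summed levels of 766 to 954 normalised CPM in the HTR1E-high set and 534 to 697 in the HTR1E-low set. Single markers differed between the sets. SOX11 (53.0 to 64.2 against 0.733 to 2.30), NEFM (3.20 to 5.22 against 0.576 to 1.34) and KRT8 were higher in all HTR1E-high libraries. PAX2 was lower (1.815 to 2.84 against 4.03 to 21.6), and VIM, KRT18, NEFL and LIN28B overlapped. Markers of blood (4 genes, 1.84 to 3.10 and 1.15 to 12.4), hepatocytes (3 genes, 0.495 to 0.985 and 0.330 to 2.88), endothelium (3 genes, 0.214 to 1.504 and 0.330 to 2.30) and fibroblasts (4 genes, 27.6 to 33.5 and 12.1 to 45.2) were lower in sum, and PTPRC and TTR were at 0 in all 8 libraries. Normalised CPM are CPM after scaling by trimmed mean of M-values (TMM), and a level per length is normalised CPM per kilobase of exon.

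Glycolytic enzymes were the most abundant members per length. GAPDH, which oxidises the triose phosphate and is a common reference transcript, had the highest median level, 558 normalised CPM per kilobase (296 to 700 over the 8 libraries). It was followed by the enolase ENO1, with a median of 183 per kilobase (109 to 295). TPI1, which interconverts the triose phosphates, had a median of 150 per kilobase (78.7 to 204). Next came LDHB, the lactate dehydrogenase subunit that favours pyruvate formation, at 99.0 per kilobase (55.8 to 179), and PKM, the pyruvate kinase, at 84.8 per kilobase (66.0 to 113). The order GAPDH, ENO1, TPI1, LDHB held within each of the 8 libraries, and LDHB lay above PKM in 6 of 8.

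The remaining enzymes of the lower pathway ranged widely. PGAM1, the phosphoglycerate mutase, had 19.2 to 76.0 normalised CPM per kilobase. LDHA, the subunit that favours lactate formation, had 23.4 to 49.3 per kilobase. PGK1, the first ATP-forming step, had 13.5 to 45.5 per kilobase. The neuronal-type isoforms of enolase and aldolase were lower, with 7.13 to 23.2 per kilobase for ENO2 and 1.60 to 4.63 for ALDOC. ALDOA, usually the main aldolase of such cells, had only 1.93 to 6.01 per kilobase, but 42.3% of its exon bases lie in another annotated gene on the same strand, and read pairs over both genes were assigned to neither. Its level here is a lower limit. Of the members, 14 have pseudogenes by name in the annotation, among them GAPDH with 62, BNIP3 with 39 and PGAM1 with 13, and reads that match such copies may be lost or split.

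In the upper pathway, GPI, which isomerises glucose phosphate, had 15.5 to 48.9 normalised CPM per kilobase. Among the hexokinases, which trap glucose in the cell, HK1 had 7.97 to 12.99 per kilobase and HK2 2.48 to 6.36. The platelet-type and liver-type phosphofructokinases were the more abundant isoforms of the committed step, with 22.0 to 57.0 per kilobase for PFKP and 8.65 to 27.6 for PFKL. PFKM, the muscle type, had 4.72 to 7.54 per kilobase. The bifunctional regulators of that step were low, with 2.35 to 4.39 per kilobase for PFKFB3 and 1.32 to 3.26 for PFKFB4. Glucose uptake was represented mainly by SLC2A1 (GLUT1), with 11.8 to 38.3 per kilobase, above SLC2A3 (GLUT3), with 1.17 to 5.98. SLC16A3, the lactate exporter MCT4, was the lowest tested member, with 0.192 to 0.468 per kilobase and 3 to 37 read pairs per library. PDK1, the kinase that holds back pyruvate dehydrogenase, had 1.73 to 6.08 per kilobase.

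Hypoxia-inducible members outside glycolysis lay mostly below the enzymes. DDIT4, an inhibitor of mTOR signalling, was the highest of them, with 14.3 to 34.7 normalised CPM per kilobase. P4HA1 and P4HA2, catalytic subunits of the collagen prolyl hydroxylase, had 4.93 to 12.3 and 2.17 to 6.39 per kilobase. VEGFA, the angiogenic growth factor, had 5.68 to 8.84 per kilobase, and ADM, the vasodilator peptide adrenomedullin, had 4.03 to 8.67. The mitophagy receptors BNIP3L and BNIP3 had 3.50 to 11.98 and 2.16 to 4.51 per kilobase. NDRG1, a stress-responsive differentiation gene, had 2.90 to 10.7 per kilobase, and KDM3A, a histone demethylase, 2.57 to 3.99. Of the oxygen sensors, EGLN1 had 4.06 to 6.71 per kilobase and EGLN3, itself a HIF target, 0.548 to 1.57. ANKRD37, an ankyrin repeat protein, had 0.223 to 1.36 per kilobase, with 1 read pair in B without ligand, and CA9 had 0 to 0.148.

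**Figure D1:**
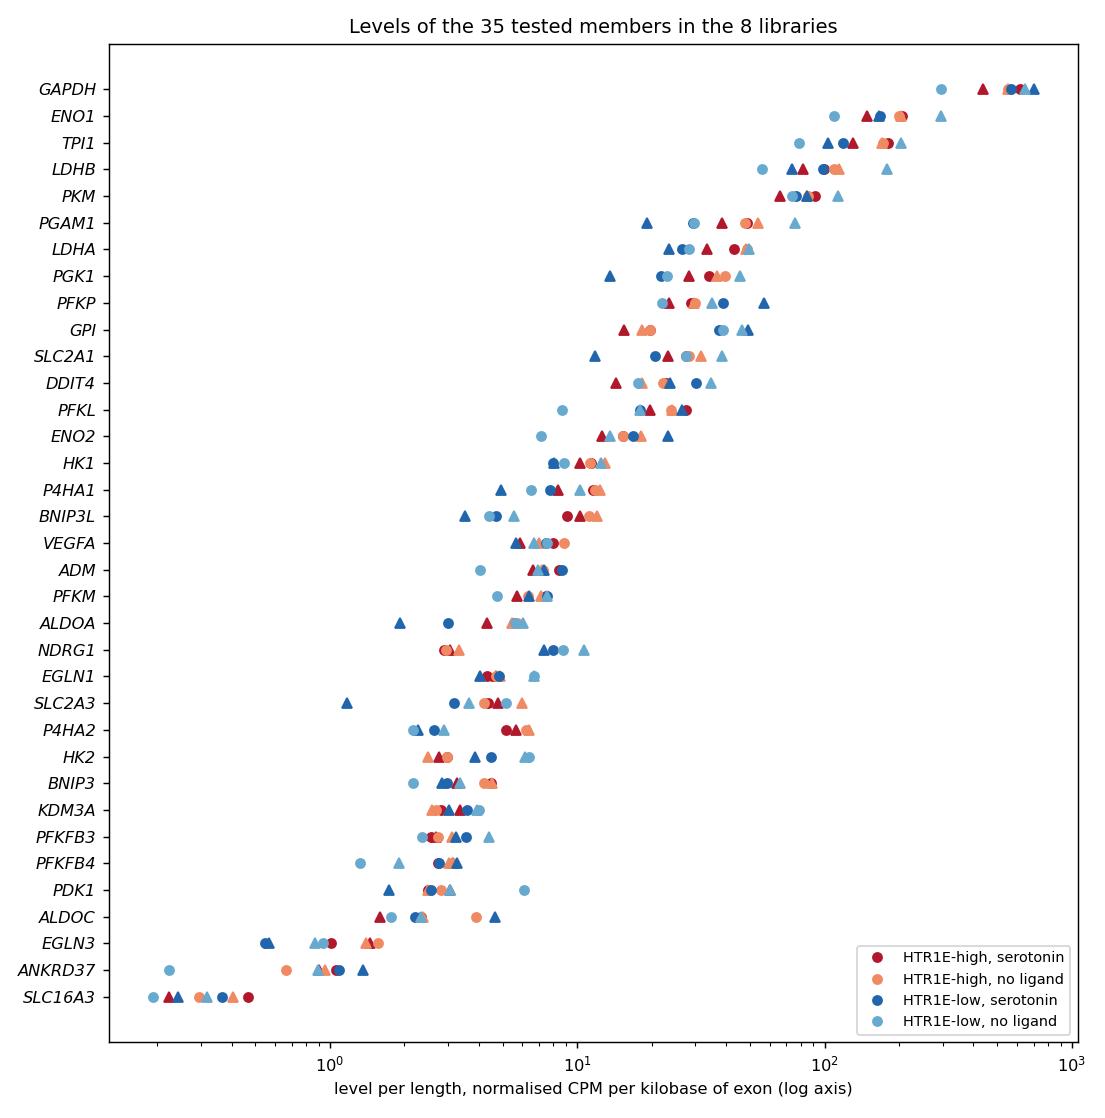
Level per length of the 35 tested members in the 8 libraries, in normalised CPM per kilobase of exon on a log axis, with genes ordered by median; colours mark the set and treatment, circles the columns without R and triangles those with R. GAPDH is highest (median 558) and SLC16A3 lowest (0.192 to 0.468), and NDRG1, GPI and HK2 show the HTR1E-low libraries to the right of the HTR1E-high ones, while P4HA2, BNIP3L and EGLN3 show the reverse.

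The first comparison asked how the HTR1E-high libraries differ from the HTR1E-low libraries. With all libraries, a few members differed, in both directions, and the glycolytic pathway as a whole did not move one way. NDRG1, the hexokinase HK2 and GPI were lower in the HTR1E-high libraries, and the collagen hydroxylase subunit P4HA2 and the mitophagy receptor BNIP3L were higher. Each of the 5 was called in at least 1 treatment, and NDRG1, P4HA2 and BNIP3L were called in both. In bulk libraries, fewer cells that express a gene and less RNA per cell cannot be told apart.

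NDRG1 showed the largest difference. It had 28.5 and 30.1 normalised CPM in the HTR1E-high serotonin libraries (without and with R in the name) and 28.8 and 32.8 in the HTR1E-high libraries without ligand, against 78.4 and 72.0 in the HTR1E-low serotonin libraries (B and BR) and 85.8 and 105 in those without ligand. All 4 HTR1E-high libraries lay below all 4 HTR1E-low libraries. Without ligand its log2 fold change was −1.64 ± 0.26 (SE), or 3.11-fold lower in the HTR1E-high set, with adjusted p = 0.00968 (edgeR's quasi-likelihood test, Benjamini-Hochberg over 17144 genes). After serotonin it was −1.36 ± 0.26, or 2.57-fold lower, with adjusted p = 0.0161 by the same edgeR test.

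HK2 is the hypoxia-inducible hexokinase, whose promoter above held 3 core matches. It had 18.1 and 16.7 normalised CPM in the HTR1E-high serotonin libraries and 18.0 and 15.1 in the HTR1E-high libraries without ligand, against 27.2 and 23.5 in the HTR1E-low serotonin libraries and 38.6 and 37.3 in those without ligand. The sets did not overlap, and the gap was wider without ligand. The log2 fold change was −1.19 ± 0.25 without ligand (adjusted p = 0.0341, edgeR) and −0.54 ± 0.25 after serotonin (adjusted p = 0.212, edgeR), so HK2 was called only without ligand. The difference between these values is the serotonin interaction, which was not called for any member (below).

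GPI was the reverse in its calls. It had 211 and 165 normalised CPM in the HTR1E-high serotonin libraries and 211 and 195 in the HTR1E-high libraries without ligand, against 398 and 522 in the HTR1E-low serotonin libraries and 416 and 494 in those without ligand. The sets did not overlap in either treatment. The log2 fold change was −1.29 ± 0.32 after serotonin (2.44-fold lower in the HTR1E-high set, adjusted p = 0.0439, edgeR). Without ligand it was of like size, −1.17 ± 0.32, with adjusted p = 0.086 (edgeR).

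P4HA2 had 43.7 and 47.9 normalised CPM in the HTR1E-high serotonin libraries and 52.8 and 54.4 in the HTR1E-high libraries without ligand, against 22.3 and 19.3 in the HTR1E-low serotonin libraries and 18.4 and 24.7 in those without ligand. All HTR1E-high libraries lay above all HTR1E-low libraries. The log2 fold change was 1.28 ± 0.26 without ligand (2.43-fold higher, adjusted p = 0.0292, edgeR) and 1.14 ± 0.26 after serotonin (2.20-fold higher, adjusted p = 0.0305, edgeR). Its paralogue P4HA1 had log2 fold changes of 0.49 ± 0.32 without ligand and 0.65 ± 0.32 after serotonin, neither called.

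BNIP3L had 39.1 and 44.3 normalised CPM in the HTR1E-high serotonin libraries and 48.0 and 51.6 in the HTR1E-high libraries without ligand, against 20.3 and 15.1 in the HTR1E-low serotonin libraries and 19.0 and 24.0 in those without ligand. The sets were again separate. The log2 fold change was 1.19 ± 0.27 without ligand (2.27-fold higher, adjusted p = 0.0454, edgeR) and 1.23 ± 0.27 after serotonin (2.35-fold higher, adjusted p = 0.0267, edgeR). Its paralogue BNIP3 had 0.59 ± 0.30 without ligand and 0.42 ± 0.29 after serotonin, neither called.

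Counted over all 8 libraries, 3 members lay wholly above in the HTR1E-high set (P4HA2, BNIP3L and EGLN3), where 9.96% of all tested genes did so. Another 3 lay wholly below (NDRG1, HK2 and GPI), where 7.62% of all tested genes did so. The other 29 tested members overlapped. These shares of members are near those of all genes. EGLN3 had 7.43 and 10.7 normalised CPM in the HTR1E-high serotonin libraries and 11.5 and 10.3 in those without ligand, against 4.03 and 4.19 in the HTR1E-low serotonin libraries and 6.91 and 6.38 in those without ligand. Its log2 fold change was 1.13 ± 0.35 after serotonin (adjusted p = 0.0824, edgeR) and 0.73 ± 0.35 without ligand, neither called.

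**Figure D2:**
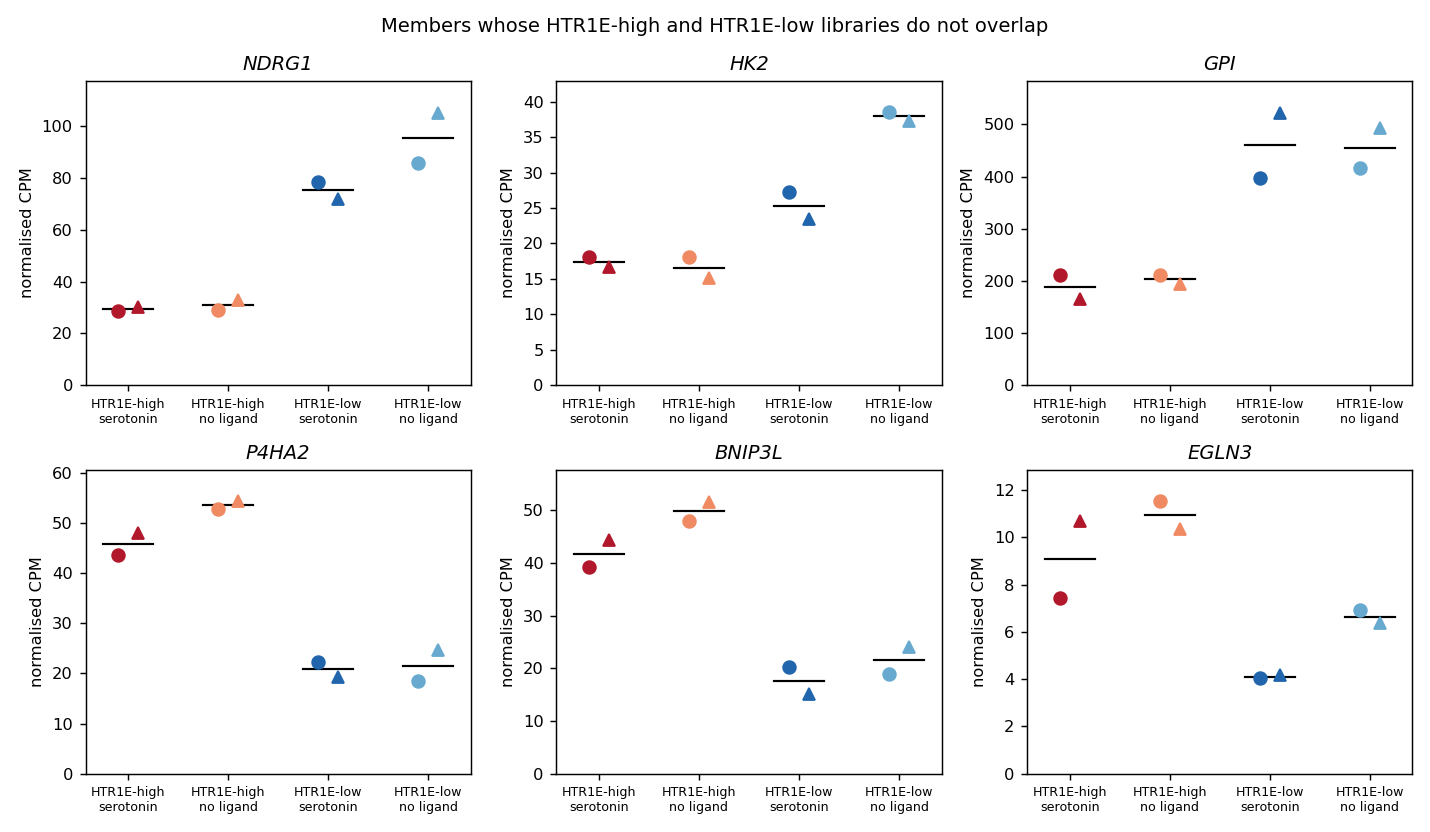
Normalised CPM of the 6 members whose HTR1E-high and HTR1E-low libraries do not overlap, by set and treatment; each point is 1 library (circle without R, triangle with R) and each line the mean of 2. NDRG1, HK2 and GPI are lower in all 4 HTR1E-high libraries (NDRG1 28.5 to 32.8, against 72.0 to 105), and P4HA2, BNIP3L and EGLN3 are higher.

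Without ligand, 2 of the 35 tested members were higher in the HTR1E-high set, where 1.52% of all tested genes were called higher, and 2 were lower, where 0.904% were. After serotonin, 2 members were higher, where 2.33% of all tested genes were, and 2 were lower, where 2.92% were. Each of these counts rests on 2 genes of 35. The members' median log2 fold change was 0.16 without ligand and 0.07 after serotonin, beside 0.03 and 0.02 over all tested genes. With all libraries the members thus did not shift one way: 21 of 35 were above 0 without ligand and 20 of 35 after serotonin. Without ligand, leaving out B or BR gave medians of opposite sign (below). By role, the 9 enzymes from aldolase to pyruvate kinase had no call in either treatment, with medians of 0.14 without ligand and 0.09 after serotonin. The 5 genes of the phosphofructokinase step, the 3 transporters and the 3 genes of pyruvate fate had none either.

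GAPDH, ENO1, TPI1, LDHB and PKM, the most abundant members per length, had log2 fold changes from −0.27 to 0.48, with SE of 0.36 to 0.46. Some other enzymes had larger estimates that were not called. PFKL stood at 0.85 ± 0.38 without ligand. After serotonin, PFKP stood at −0.87 ± 0.33, PGK1 at 0.82 ± 0.37 and PGAM1 at 0.84 ± 0.41. GAPDH had log2 fold changes of 0.22 ± 0.44 without ligand and −0.27 ± 0.44 after serotonin. LDHA had 0.32 ± 0.34 and 0.61 ± 0.34, with 267 and 208 normalised CPM in the HTR1E-high serotonin libraries and 303 and 298 without ligand, against 165 and 145 in the HTR1E-low serotonin libraries and 175 and 306 without ligand. Among these, B without ligand was far from BR without ligand. PFKL had 246 and 175 in the HTR1E-high serotonin libraries and 214 and 216 without ligand, against 161 and 237 in the HTR1E-low serotonin libraries and 77.2 and 160 without ligand. HK1 had 71.5 and 64.5 in the HTR1E-high serotonin libraries and 71.1 and 81.8 without ligand, against 50.2 and 50.8 in the HTR1E-low serotonin libraries and 55.9 and 78.3 without ligand. The HTR1E-low libraries varied more than the HTR1E-high ones for both genes. VEGFA was close to level, with 115 and 84.5 in the HTR1E-high serotonin libraries and 128 and 101 without ligand, against 108 and 81.9 in the HTR1E-low serotonin libraries and 109 and 96.1 without ligand. EGLN1 had 31.3 and 34.1 in the HTR1E-high serotonin libraries and 34.2 and 35.4 without ligand, against 34.9 and 29.5 in the HTR1E-low serotonin libraries and 48.4 and 48.8 without ligand. The sets overlapped for VEGFA and EGLN1, and neither was called. ALDOA had 21.8 and 16.9 in the HTR1E-high serotonin libraries and 22.3 and 21.4 without ligand, against 11.7 and 7.54 in the HTR1E-low serotonin libraries and 21.9 and 23.6 without ligand. SLC2A1 had 129 and 110 in the HTR1E-high serotonin libraries and 134 and 149 without ligand, against 97.1 and 55.8 in the HTR1E-low serotonin libraries and 130 and 181 without ligand. For both, the HTR1E-low serotonin libraries were the lowest, and neither was called. After serotonin, ALDOA stood at 1.00 ± 0.30 (adjusted p = 0.0732, edgeR) and SLC2A1 at 0.65 ± 0.33 (adjusted p = 0.253, edgeR).

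**Figure D3:**
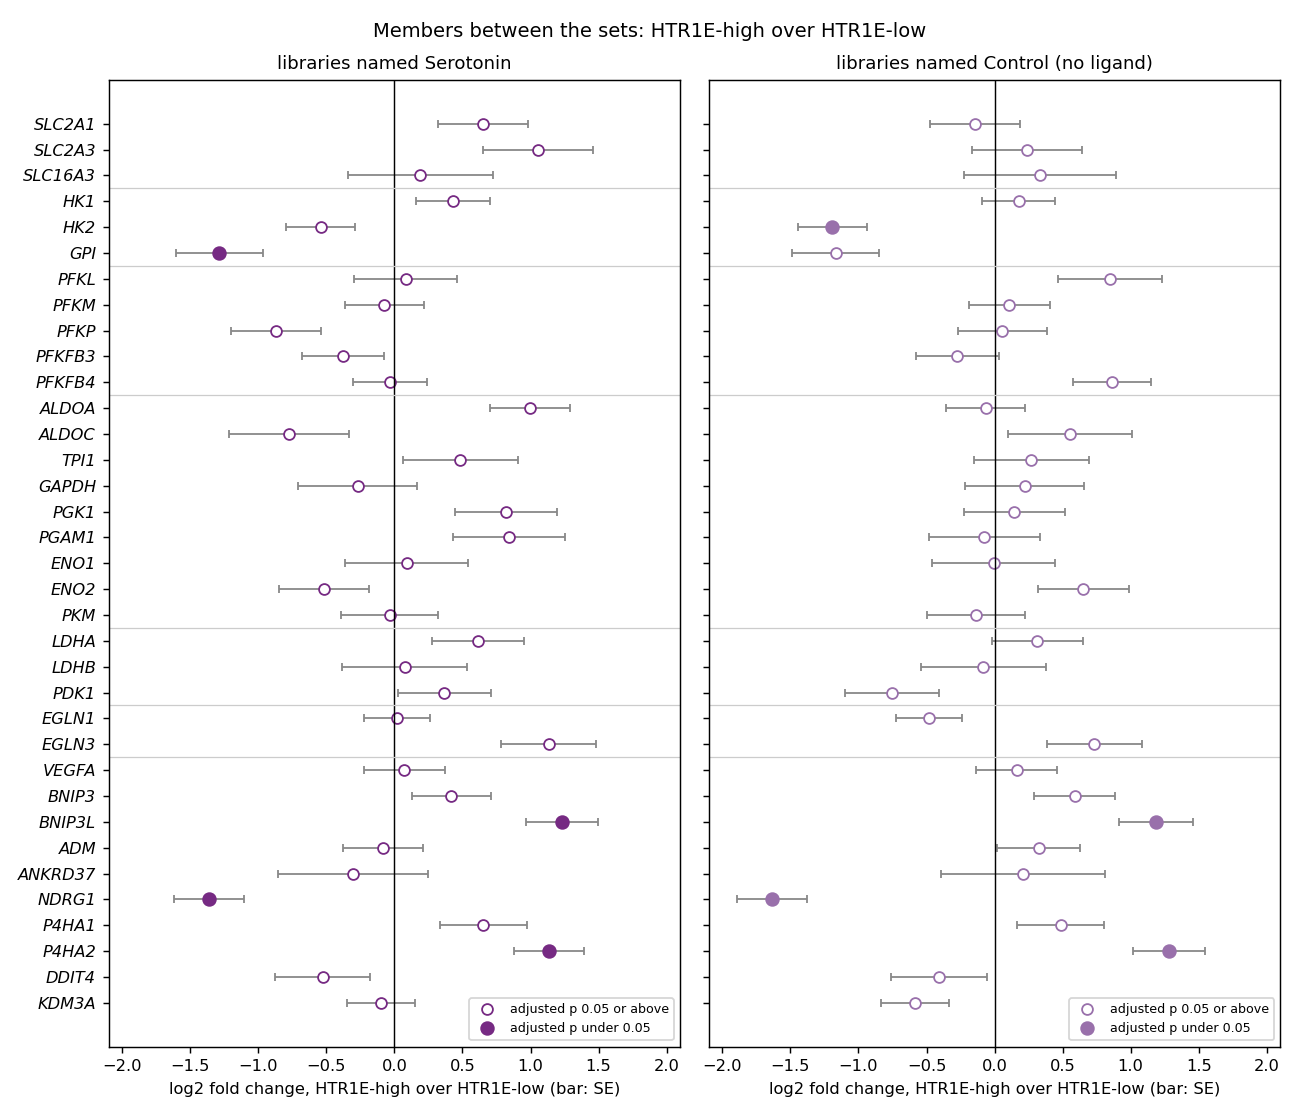
log2 fold change of each tested member, HTR1E-high over HTR1E-low, with its SE as a bar, after serotonin (left) and without ligand (right); filled points have adjusted p under 0.05 and lines separate the roles. NDRG1 (−1.36 and −1.64), P4HA2 (1.14 and 1.28) and BNIP3L (1.23 and 1.19) are filled in both panels, GPI only after serotonin and HK2 only without ligand.

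Leaving out both B without ligand and BR with serotonin leaves 1 HTR1E-low library per treatment, so the spread then comes from the HTR1E-high libraries alone, and the calls of that fit do not show that the differences exceed the spread among HTR1E-low libraries. The estimates were NDRG1 −1.78, HK2 −1.19, P4HA2 1.105 and BNIP3L 1.04 without ligand. After serotonin they were NDRG1 −1.43, GPI −1.09, P4HA2 1.03 and BNIP3L 1.03. The members' median without ligand was then −0.18, so its sign turns on these libraries. With scaling by library totals in place of TMM, 0 members were called between the sets. The estimates kept their direction, with NDRG1 at −1.30 ± 0.44 (adjusted p = 0.173, edgeR) and P4HA2 at 1.60 ± 0.44 (adjusted p = 0.0904, edgeR) without ligand, and the SE of each was larger than under TMM (0.26). The median of all genes then stood at 0.36 without ligand and 0.30 after serotonin. The split of all called genes was 260 higher and 155 lower without ligand and 400 and 500 after serotonin under TMM, and 244 and 57, and 228 and 112, under library totals.

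Leaving out 1 library left a cell with 1 library, which is then assumed to vary like the others. Without ligand, 0 members were called without either HTR1E-high library of the same treatment, A or the one with R (NDRG1 adjusted p = 0.225 and 0.181, edgeR), and 11 without BR, where 20.1% of all tested genes were called. Without B, 4 were called (2.94% of all tested genes), with GPI in place of BNIP3L (adjusted p = 0.0773, edgeR). Leaving out a serotonin library, which enters this comparison only through the shared spread, left NDRG1 alone for either HTR1E-high library or BR, and NDRG1 and HK2 for B. After serotonin, 0 members were called without BR with serotonin or without any 1 of the 4 HTR1E-high libraries, where adjusted p for NDRG1 lay between 0.0602 and 0.189 by edgeR. In the comparison without ligand, the members' median log2 fold change was −0.21 when B without ligand was left out, with 22 of 35 below 0. It was 0.76 when BR without ligand was left out, with 29 of 35 above 0. The sign and size of that median thus turn on which of these libraries is kept. After serotonin, the members' median was 0.12 without B with serotonin. It was 0.05 without B without ligand and 0.07 without BR without ligand. The estimates called with all libraries kept their sign in all of these fits. Without ligand, limma-voom did not call BNIP3L (adjusted p = 0.0607), and the fit of only the 4 libraries compared called 0 members. A term for the mitochondrial share left NDRG1 and HK2, where 1.78% of all tested genes were called.

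The second comparison asked what 1 h of serotonin did within each set. In the HTR1E-high libraries it moved no member past the threshold. All 35 had adjusted p = 1 in edgeR's test, 0 had an unadjusted p under 0.05, and 0 of 17144 genes (0%) were called, with 62 genes at an unadjusted p under 0.05. DESeq2's Wald test and limma-voom called 0 members as well. The log2 fold changes ran from −0.67 (ALDOC) to 0.28 (ANKRD37), with a median of −0.16 beside −0.02 over all tested genes, and 30 of the 35 were below 0. The 95% intervals of the members reached no lower than −1.62 and no higher than 1.49, limits set by ALDOC and ANKRD37. The half-width of these intervals had a median of 0.72 over the 35 members and ran from 0.53 to 1.21. These intervals and p-values use a spread shared with the HTR1E-low libraries, so they do not measure the HTR1E-high spread alone. With only the HTR1E-high libraries in the fit, the members' median SE was 0.20, against 0.33 with all libraries. That fit also called 0 members and 0 genes, with 307 of 16196 genes at an unadjusted p under 0.05 (edgeR).

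Single members are given by library. LDHA had 267 and 208 normalised CPM with serotonin, against 303 and 298 without ligand, a log2 fold change of −0.34 ± 0.34. SLC2A1 had 129 and 110 with serotonin, against 134 and 149 without ligand (−0.24 ± 0.33). PGK1 had 189 and 156 with serotonin, against 218 and 202 without ligand (−0.29 ± 0.37). For these 3 members both serotonin libraries lay below both libraries without ligand, with the R-named serotonin library the lowest each time. That library also had the highest mitochondrial share of the set, 24.6%, against 17.9% to 18.6% in the other 3. The part of this share in the values was not tested. Without that library the members' median was −0.06, and 20 of 35 were below 0. KDM3A had the reverse order, with 37.8 and 45.1 with serotonin, against 36.2 and 34.6 without ligand. How many of all tested genes separate 2 against 2 libraries in this way was not counted. No result is therefore read from such separations, here or in the HTR1E-low libraries below.

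In the HTR1E-low libraries 0 of the 35 members were called as well, where 0.0117% of all tested genes (2 of 17144) were called. At an unadjusted p under 0.05 there were 11 members, and 4542 of all tested genes. DESeq2 called 2 members, ALDOA and SLC2A1, where it called 9.33% of all tested genes. By limma-voom 0 members were called, where 0.0117% of all tested genes were. The median was −0.26 beside 0.01 over all tested genes, with a range from −1.23 to 0.91. ALDOA was closest to the threshold, with 11.7 and 7.54 normalised CPM with serotonin, against 21.9 and 23.6 without ligand, a log2 fold change of −1.23 ± 0.30 with adjusted p = 0.0700 (edgeR). Both serotonin libraries lay below both libraries without ligand.

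PGAM1, SLC2A1 and PGK1 also had negative estimates, and for PGAM1 and PGK1 the libraries without ligand were far apart. PGAM1 had 75.3 and 49.3 normalised CPM with serotonin (B, BR), against 76.0 and 195 without ligand, with a log2 fold change of −1.14 ± 0.41 (adjusted p = 0.123, edgeR). SLC2A1 had 97.1 and 55.8 with serotonin, against 130 and 181 without ligand, with −1.03 ± 0.33 (adjusted p = 0.101, edgeR). PGK1 had 120 and 74.5 with serotonin, against 127 and 251 without ligand, with −0.96 ± 0.38 (adjusted p = 0.140, edgeR). For SLC2A1 both serotonin libraries lay below both libraries without ligand. For PGAM1 and PGK1, B without ligand was near B with serotonin and BR without ligand was the high library. PDK1 had 38.1 and 25.8 with serotonin, against 90.4 and 45.6 without ligand (−1.06 ± 0.35, adjusted p = 0.104, edgeR), and here B was the high library.

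Positive estimates were found for PFKP, PFKFB4 and ENO2. PFKP had 188 and 276 normalised CPM with serotonin, against 107 and 169 without ligand (0.74 ± 0.33). PFKFB4 had 16.9 and 19.9 with serotonin, against 8.06 and 11.7 without ligand (0.83 ± 0.29). ENO2 had 71.7 and 99.3 with serotonin, against 30.5 and 58.2 without ligand (0.91 ± 0.34). In each, both serotonin libraries lay above both libraries without ligand, B without ligand was the lowest, and none was called by edgeR.

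These estimates turn on single libraries. Without B without ligand, PGK1 (adjusted p = 0.0442, edgeR) and PGAM1 (adjusted p = 0.0368, edgeR) were called lower, where 1.41% of all tested genes were called. Without BR without ligand, 7 members were called (PFKL, PFKP, PFKFB4, ALDOA, GAPDH, ENO2 and PDK1), where 26.3% of all tested genes were called, the median stood at 0.18, and PGAM1 was −0.25 (adjusted p = 0.602, edgeR). Without B with serotonin the members' median log2 fold change was −0.30, and without BR with serotonin it was −0.15. Each of these fits leaves 1 HTR1E-low serotonin library. With both B without ligand and BR with serotonin left out, which leaves 1 library per treatment, the estimate for PGAM1 was −1.39.

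**Figure D4:**
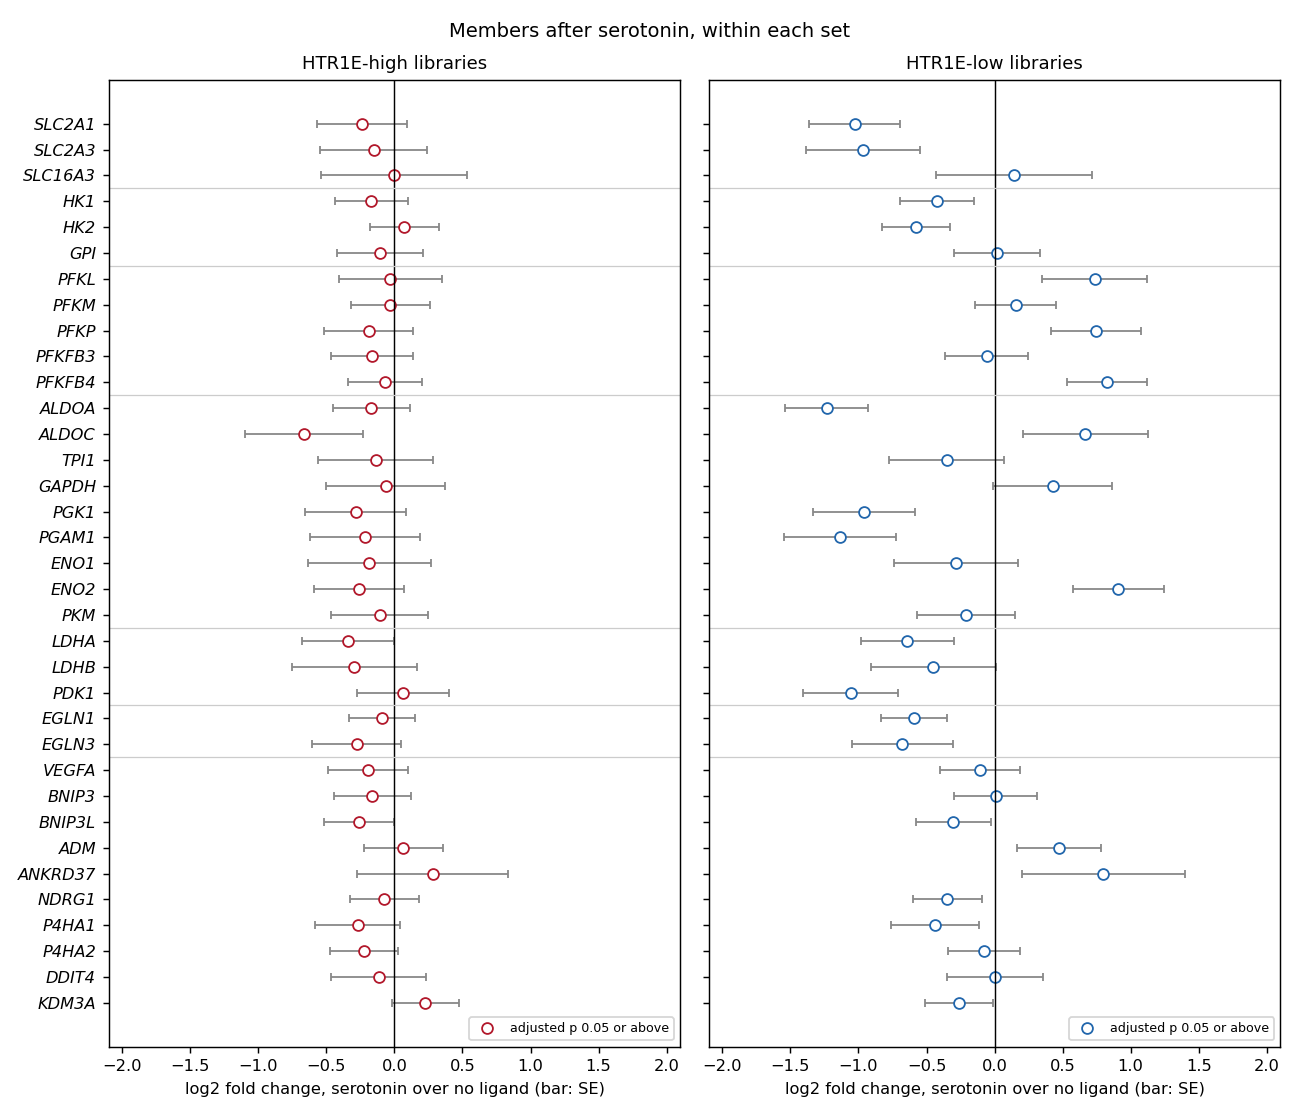
log2 fold change of each tested member, serotonin over no ligand, with its SE as a bar, in the HTR1E-high libraries (left) and the HTR1E-low libraries (right); open points have adjusted p of 0.05 or above. No point is filled, and the estimates spread from −0.67 to 0.28 on the left and from −1.23 to 0.91 on the right.

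The mitochondrial share differed widely among the HTR1E-low libraries. It was 24.6% in B and 36.3% in BR with serotonin, against 54.4% in B and 18.9% in BR without ligand. PGK1 (74.5 to 251 normalised CPM), PGAM1 (49.3 to 195), LDHA (145 to 306) and SLC2A1 (55.8 to 181) were all highest over the 8 libraries in BR without ligand and lowest in BR with serotonin. With the log odds of that share as a term, edgeR called 4 members lower with serotonin in the HTR1E-low set, ALDOA, PGK1, PGAM1 and SLC2A1, with adjusted p between 0.0374 and 0.0383, where 9.74% of all tested genes were called. This term was chosen after seeing the data, and the part of the share in the result was not tested further.

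**Figure D5:**
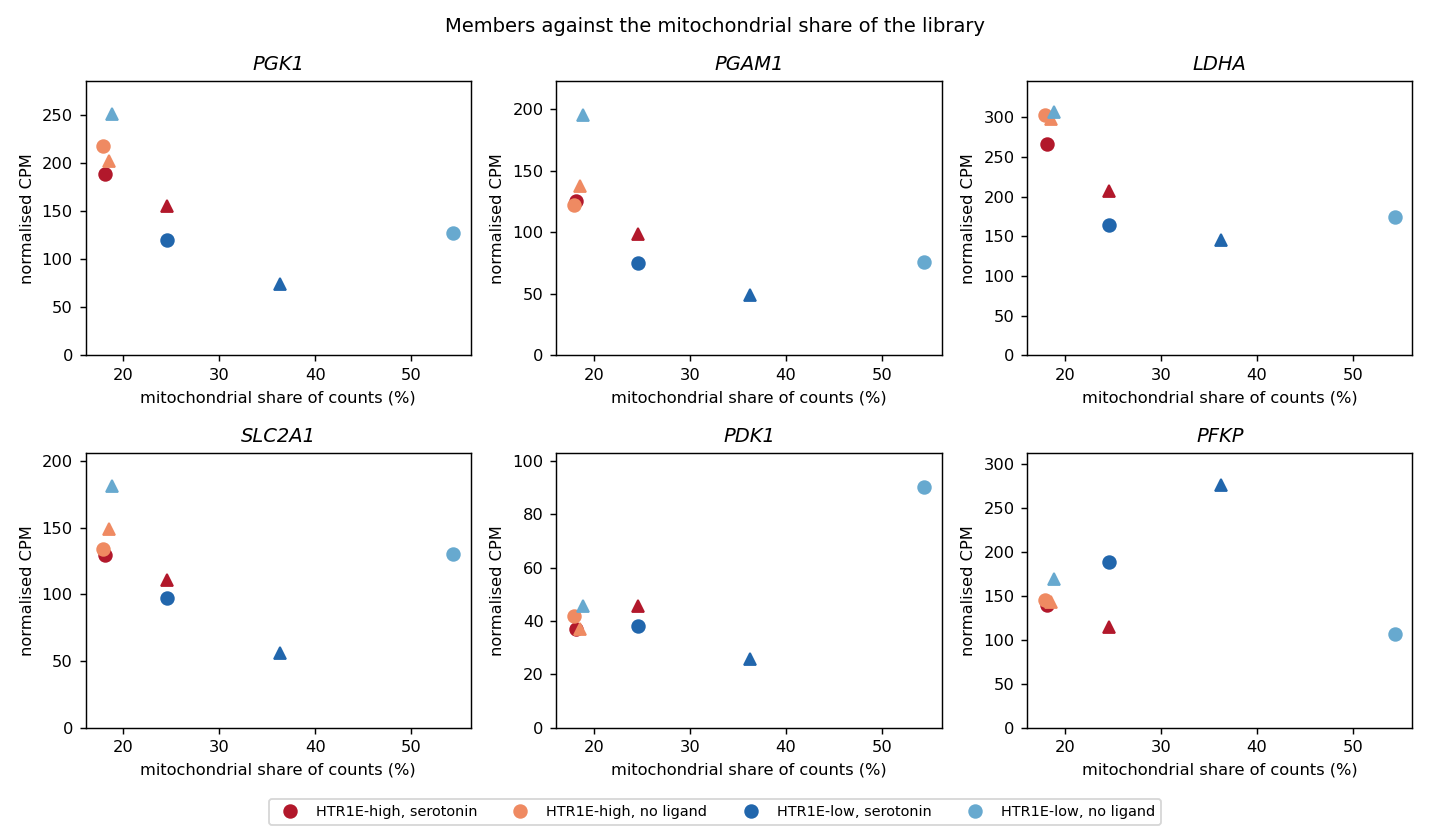
Normalised CPM of 6 members against the percentage of the library's counts in mitochondrially encoded genes; each point is 1 of the 8 libraries (circle without R, triangle with R). PGK1, PGAM1, LDHA and SLC2A1 are highest in BR without ligand (18.9%) and lowest in BR with serotonin (36.3%), while PDK1 is highest in B without ligand (54.4%) and PFKP highest in BR with serotonin.

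The third comparison asked whether the serotonin response differed between the sets. No member was called for this difference by edgeR, and 0% of all tested genes (0 of 17144) were. At an unadjusted p under 0.05 there were 4 members and 2564 genes. DESeq2 and limma-voom called 0 members. The smallest adjusted p of a member was 0.308 (edgeR), and the estimates, HTR1E-high minus HTR1E-low, ran from −1.33 to 1.119 with a median of 0.10 beside −0.04 over all genes. Without BR without ligand, 4 members (PFKL, PFKP, ENO2 and PDK1) were called, where 18.9% of all tested genes were. The SE of the members' differences had a median of 0.47 on the log2 scale.

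With both sets combined, serotonin against no ligand called 0 members by edgeR, where 0.00583% of all tested genes (1 of 17144) were called. There were 4 members and 1910 genes at an unadjusted p under 0.05, and DESeq2 and limma-voom called 0 members. The median was −0.16 beside 0.00054 over all genes, and the smallest adjusted p of a member was 0.424 (edgeR). Without BR without ligand, PDK1 was called, where 8.96% of all tested genes were.

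Of 75 further genes of these pathways (HIF subunits and regulators, other glycolytic and pyruvate genes, other hypoxia-inducible genes and glucose sensors), 62 were tested. Serotonin called 0 of the 62 by edgeR in either set, in both together and for the difference. Between the sets, 1 was higher in the HTR1E-high libraries without ligand, where 1.52% of all tested genes were. After serotonin 1 was higher, where 2.33% of all tested genes were. In both treatments 0 were lower, where 0.904% (without ligand) and 2.92% (serotonin) of all tested genes were. Each count rests on 1 gene of 62. LOXL2, a collagen and elastin crosslinking lysyl oxidase, had 20.8 and 20.05 normalised CPM in the HTR1E-high serotonin libraries and 17.6 and 22.9 without ligand, against 7.45 and 11.4 in the HTR1E-low serotonin libraries and 7.49 and 5.50 without ligand. Its log2 fold change was 1.72 ± 0.34 without ligand (adjusted p = 0.0266, edgeR) and 1.13 ± 0.31 after serotonin (adjusted p = 0.0594, edgeR). HIF1A, the oxygen-regulated HIF subunit, had 44.5 and 60.6 in the HTR1E-high serotonin libraries and 55.9 and 56.4 without ligand, against 26.9 and 18.9 in the HTR1E-low serotonin libraries and 69.1 and 45.7 without ligand. It was called higher after serotonin only, at 1.19 ± 0.31 (adjusted p = 0.0492, edgeR), and stood at −0.01 ± 0.30 without ligand. That adjusted p is just under the threshold. Whether the calls of LOXL2 and HIF1A hold in the alternative fits was not examined. For HIF1A the HTR1E-low serotonin libraries were the low ones, and within that set its serotonin estimate was −1.30 ± 0.31 (adjusted p = 0.0695, edgeR). The medians of the 10 tested HIF pathway genes were −0.38 without ligand and 0.24 after serotonin, beside 0.03 and 0.02 over all tested genes.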

How the data were processed

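The deposited values are unnormalised counts of read pairs for each gene and library, made by featureCounts 2.0.1 on GENCODE release 28 with the reverse-stranded setting (2), per the file headers. The submitters' processing notes name cutadapt 3.4, FastQC 0.11.9, Bowtie2, STAR 2.7.8a, SAMtools 1.12 and build hg38. Columns were placed by the treatment word in their names and by the shared first letter; the letter was tied to HTR1E by its CPM alone. The 2 libraries of the same set and treatment never agreed within counting noise: the chi-square per degree of freedom of these pairs was 4.20 to 154.

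The counts were tested with edgeR 4.0.16 in R 4.3.3. Genes were kept by filterByExpr (minimum count 10, minimum total 15) and scaled by TMM. A quasi-likelihood model with a mean for each of the 4 cells (set and treatment) was fitted to all 8 libraries, and each comparison was a contrast, with Benjamini-Hochberg adjustment over all tested genes and a threshold of 0.05. Intervals are 95%. DESeq2 1.42.0 and limma-voom (limma 3.58.1) were alternatives. The tests were tried on simulated data drawn with the same spread in every library. The real spread differed between cells (chi-square above), so that trial does not show how the tests perform on these libraries. Levels per length are normalised CPM per kilobase, used in place of the TPM first planned. The members and gene lists were chosen with earlier results of these data known. Every member past the threshold is named, the first gene of each role is given by library, and other members were chosen for naming after their values were seen. Promoter sequences are RefSeq's on GRCh38.p14.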

Additional observations from a re-analysis of the deposited data

Results flagged for a closer look

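Of 74 sets of 4 libraries of the same treatment that were checked for a value standing apart (Dixon's criterion at the 95% level, which chance passes in about 1 set of 20), 5 had one, all in the library B without ligand among the 4 libraries without ligand. LDHA was at 175 normalised CPM there, against 298 to 306 in the other 3. PDK1 was at 90.4, against 37.1 to 45.6. ADM was at 10.9, against 18.8 to 19.8. That library's total was 2604885 counts, against 8153715 to 9072278, and its mitochondrial share was 54.4%, against 17.9% to 18.9%. The part of the total and of the mitochondrial share in the 3 members' values was not tested.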

How the results depend on the processing

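For the HTR1E-high serotonin response, 0 members and 0 genes were called under all 19 alternatives. The 8 member calls between the sets kept their direction in all 18 alternatives run for each; the number of alternatives in which a call held ran from 7 (BNIP3L without ligand) to 14 (NDRG1 without ligand). The causes of the changes below were not tested.

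Scaling by library totals gave 0 members between the sets in either treatment, 340 genes between the sets after serotonin, and 0 genes for serotonin in the HTR1E-low set and in both sets. DESeq2's Wald test gave 2 members and 1599 genes for serotonin in the HTR1E-low set, 70 genes for the difference of the responses, 841 and 1515 genes between the sets (without ligand and after serotonin) and 11 genes for both sets. Without a filter on low counts these were 2 members and 1830 genes, 570, 1117 and 1985, and 227 genes. With only the libraries compared in the fit, there were 9 genes for serotonin in the HTR1E-low set, 0 members and 15 genes between the sets without ligand, and 2312 genes after serotonin; that fit has no form for the other 2 comparisons.

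The following alternatives were chosen after seeing the data. Without both B without ligand and BR with serotonin, which leaves no replicated HTR1E-low library, there were 1 member and 84 genes for serotonin in the HTR1E-low set, 7 genes for the difference, 1542 and 1850 genes between the sets (without ligand and after serotonin), and 7 genes for both. With the log odds of the mitochondrial share as a term, 4 members and 1670 genes (9.74% of all tested) were called for serotonin in the HTR1E-low set. Between the sets there were 2 members and 305 genes (1.78%) without ligand, and 7 members and 2207 genes (12.9%) after serotonin. For both sets there were 2 genes.

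Leaving out each library in turn gave 0 to 7 members and 0 to 4846 genes for serotonin in the HTR1E-low set, 0 to 4 and 0 to 3482 for the difference, 0 to 11 and 60 to 3693 between the sets without ligand, 0 to 10 and 83 to 3347 after serotonin, and 0 to 1 and 0 to 1650 for both sets. The highest count of genes came each time without BR without ligand.

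The labels do not pair the columns, and the deviations of columns with the same rest of the name correlated at 0.0035 (HTR1E-high) and 0.15 (HTR1E-low), over 2 pairs each. With a replicate block by that rest of the name, 4 members (ALDOA, ENO2, SLC2A3 and PDK1) were called for serotonin in the HTR1E-low set. In that fit 2218 genes (12.9% of all tested) were called there, 250 genes for the difference and 27 genes for both sets. The block was not fitted between the sets.

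Depth limits the lowest members: CA9 was not testable, and 3 read pairs, the limit that a count of 0 allows, were worth 0.331 to 1.15 CPM, for counting error only.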
